A study of Mus musculus with 4 samples.

Results

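Natural killer receptor genes were described here in effector CD4 T cells of mice with experimental autoimmune encephalomyelitis (EAE), a model of multiple sclerosis. The 10 genes were taken by name: Klrd1, Klrc1, Klrc2, Klrk1, Klrg1, Klrb1b, Klrb1c, Klrb1f, Klre1 and Ncr1, out of 23990 gene symbols. The first 9 encode lectin-like receptors of the Klr families. Ncr1 encodes NKp46, an immunoglobulin-like receptor, so the name lectin-like holds for 9 of the 10. All 10 symbols were found in the tables of both tissues. One part of the study asked how effector CD4 cells that had entered the central nervous system (CNS) differ from those in the draining lymph nodes (dLN). CD4 cells carrying the activation marker CD44 were sorted at disease onset from spinal cords (the CNS group, 2 libraries) and from pooled dLN cells (the dLN group, 2 libraries), and their RNA was sequenced. All mice were wild type on the C57BL/6 background, given as C57BL/6J in the methods of the study. They had received a myelin oligodendrocyte glycoprotein peptide in complete Freund's adjuvant with pertussis toxin. According to the methods of the study, PMA and ionomycin were given to the cells between sorting and RNA purification, whereas the labels mention no such treatment. Age, sex and the number of mice behind a library were not given in the sources used here.

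Levels are in FPKM (mapped fragments of a transcript, scaled to its length and to all mapped fragments of the library), summed over the transcripts of a gene. The deposited tables hold no counts, but the step size of low values put the libraries at about 20.9 M and 21.7 M fragments in CNS and 18.5 M and 22.0 M in dLN. Each tissue had a table of its own, scaled within each library. The Y-linked gene Ddx3y was at 12.7 and 11.2 FPKM in CNS and listed at 0 in both dLN libraries. Il2, a gene that stimulated T cells switch on, was at 18.2 and 38.8 FPKM in CNS and at 5363 and 6176 FPKM in dLN. Tissue, table, sex and handling before RNA extraction therefore cannot be told apart in any difference given here. Nothing says that the libraries of a tissue came from separate animals, so p-values measure only the spread between these libraries. With 2 libraries per tissue, a two-sided exact permutation test has a smallest p of 0.333, and the tests used here are those of limma across all genes.

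Natural killer (NK) cells read ligands on other cells through paired activating and inhibitory receptors, many of which are encoded side by side in the NK gene complex on mouse chromosome 6. Activating members signal through adaptors such as DAP10, DAP12 or the Fc receptor gamma chain, and inhibitory members carry motifs that recruit the phosphatases SHP-1, SHP-2 or SHIP-1. Some of these receptors also appear on activated CD8 T cells and on CD4 T cells with cytotoxic features.

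Promoter sequences were matched for 8 of the 10 genes in the RefSeq table (GRCm38.p6, 250 bases before to 50 bases after a transcript start), and Klrd1 and Klrg1 had no entry. The first pair is shown because Klrb1b and Klrb1f, which lie in separate places of the complex, carry a common 22-base run, printed in capitals, which was chosen after the sequences were seen. The run began 58 bases before the transcript start in Klrb1b (chr6:128826266-128826565, minus strand) and 68 bases before it in Klrb1f (chr6:129045651-129045950, plus strand). It occurred in 3 of 32851 promoters (0.00913%), all of these 2 genes.
Klrb1b: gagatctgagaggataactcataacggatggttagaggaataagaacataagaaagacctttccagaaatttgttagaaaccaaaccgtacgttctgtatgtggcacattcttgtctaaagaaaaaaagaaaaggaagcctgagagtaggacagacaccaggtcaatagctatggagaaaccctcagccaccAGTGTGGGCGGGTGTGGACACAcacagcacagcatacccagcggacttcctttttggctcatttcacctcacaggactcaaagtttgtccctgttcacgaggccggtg
Klrb1f: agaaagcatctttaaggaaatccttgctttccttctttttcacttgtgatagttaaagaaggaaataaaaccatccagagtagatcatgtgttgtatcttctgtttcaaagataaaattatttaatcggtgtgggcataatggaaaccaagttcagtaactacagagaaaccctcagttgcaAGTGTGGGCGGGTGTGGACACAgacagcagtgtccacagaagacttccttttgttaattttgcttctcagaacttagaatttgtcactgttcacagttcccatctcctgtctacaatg
The second pair is shown for NKG2D and NKG2A, with the letters TGTGGT, or ACCACA where they lie on the other strand, in capitals. These are the letters of a Runx site. Klrk1 lies at chr6:129623815-129624114 and Klrc1 at chr6:129678924-129679223, both on the minus strand.
Klrk1: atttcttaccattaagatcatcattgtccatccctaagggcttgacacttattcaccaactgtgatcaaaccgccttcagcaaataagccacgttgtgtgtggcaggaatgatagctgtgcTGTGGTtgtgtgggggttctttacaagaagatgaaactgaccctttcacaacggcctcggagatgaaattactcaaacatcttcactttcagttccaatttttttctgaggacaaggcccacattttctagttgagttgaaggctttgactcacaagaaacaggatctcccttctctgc
Klrc1: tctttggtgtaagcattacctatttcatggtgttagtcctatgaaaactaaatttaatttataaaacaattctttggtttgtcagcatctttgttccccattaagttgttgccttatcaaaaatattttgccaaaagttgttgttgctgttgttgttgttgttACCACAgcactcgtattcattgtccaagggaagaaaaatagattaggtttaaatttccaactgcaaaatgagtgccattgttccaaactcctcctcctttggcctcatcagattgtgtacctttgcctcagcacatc
Read on both strands, TGTGGT was in promoters of 6 of the 8 genes (Klrb1c, Klrc1, Klrc2, Klre1, Klrk1 and Ncr1), in 8 of their 12 entries and in 16.8% of all promoters. The T-box letters AGGTGT were in none of the 12 entries and in 13.7% of all promoters. GGGTGTGG, which is part of the 22-base run, was in 3 of the 12 entries, those of Klrb1b and Klrb1f, and in 3.56% of all promoters. It overlaps neither of the other letter strings in the printed sequences.

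The 10 genes differed widely in level, and most were far above the dLN libraries in CNS. In each CNS library 8 of the 10 reached 1 FPKM, and in each dLN library 2 did, Klrc1 and Klrg1. Together they summed to 182 and 161 FPKM in CNS and to 61.2 and 54.6 FPKM in dLN. Klrc1 made up 41.6% and 44.5% of that sum in CNS but 91.6% and 92.9% in dLN, so that the dLN libraries held one abundant receptor transcript and the CNS libraries several. In bulk RNA, fewer cells of a type and less RNA per cell cannot be told apart.

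**Figure D1:**
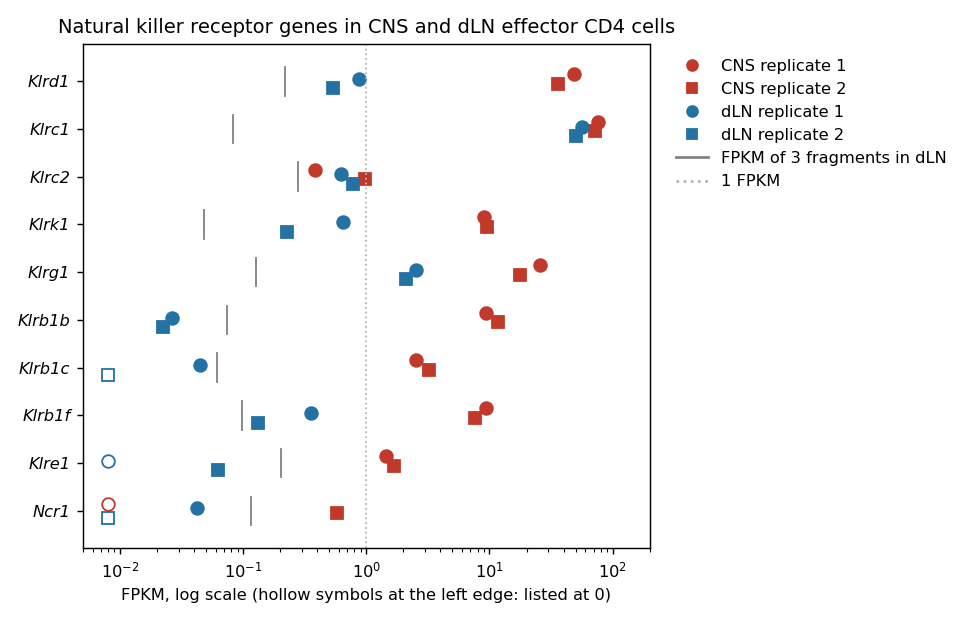
FPKM on a log axis of the 10 receptor genes in each of the 4 libraries. Red symbols are CNS, blue are dLN, circles replicate 1, squares replicate 2, hollow symbols at the left edge are values listed at 0, and the short grey lines mark the FPKM of 3 fragments in dLN. CNS and dLN symbols of Klrd1, Klrk1, Klrg1, Klrb1b, Klrb1c, Klrb1f and Klre1 lie well apart, those of Klrc1 lie close, and those of Klrc2 and Ncr1 overlap.

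In CNS the order of mean levels was Klrc1, Klrd1, Klrg1, Klrb1b, Klrk1, Klrb1f, Klrb1c, Klre1, Klrc2 and Ncr1. Klrb1b, Klrk1 and Klrb1f, at means of 10.5, 9.31 and 8.52 FPKM, overlapped between the libraries and have no order among themselves, and neither have Klrc2 and Ncr1. The other neighbours in that order did not overlap. In dLN, Klrc1 and then Klrg1 stood clear of the rest, while Klrd1, Klrc2 and Klrk1, at means of 0.703, 0.699 and 0.438 FPKM, overlapped. Below these came Klrb1f, which overlapped Klrk1, and then Klre1, Klrb1b, Klrb1c and Ncr1, with 2 fragments or fewer in each library.

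Of the 10 genes, 8 passed the filter of a mean of 1 FPKM in either tissue and were tested. Klrd1, Klrk1, Klrb1b, Klrb1c, Klrb1f and Klre1 passed through CNS alone, with a dLN mean under 1 FPKM, and had to differ, so the count of calls supports nothing about the family. All 8 that were tested were called higher in CNS (limma, adjusted p under 0.05), against a background in which 74.9% of 10634 genes were called, 37.8% higher and 37.2% lower. Both CNS libraries lay above both dLN libraries for the same 8, as they did for 45.7% of all genes tested, and 89.4% of genes tested had groups that did not overlap in one direction or the other. The median log2 ratio over all genes tested was 0.05. The ratios below are of FPKM + 1, which understates the change of low genes.

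Klrd1 and the Klrc genes encode CD94 and its NKG2 partners, which bind the non-classical class I molecule Qa-1 as pairs. Klrd1, which encodes CD94, the chain that every such pair needs, was at 48.8 and 36.2 FPKM in CNS and at 0.875 and 0.531 FPKM in dLN. The CNS libraries were high, and the dLN libraries were low with about 11 and 8 fragments each. The mean of 42.5 ± 8.89 FPKM (SD, n = 2) in CNS was 60.4 times that of 0.703 ± 0.243 FPKM (SD, n = 2) in dLN. Pooled over libraries, the ratio of fragments was 62.0 with a 95% exact interval of 39.5 to 103, which covers counting error only. The log2 ratio was 4.67 (SE 0.19, limma adjusted p = 9.09e-05), the highest of the 8 genes tested on this scale. With a pseudocount of 0.1 that of Klrb1b was higher (6.40 against 5.75), and its ratio of fragments was higher too.

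Klrc1, which encodes the inhibitory chain NKG2A, was at 75.8 and 71.7 FPKM in CNS and at 56.1 and 50.8 FPKM in dLN. All 4 libraries were high, and the CNS libraries lay a little above the dLN libraries. The log2 ratio was 0.46 (SE 0.09, 95% interval 0.22 to 0.70, limma adjusted p = 0.00781). This call was lost with libraries scaled to the same sum of FPKM (0.26, limma adjusted p = 0.0626) and without dLN replicate 2 (0.39, limma adjusted p = 0.0523), within a range of 0.00277 to 0.0626 over all alternatives. Set against Cd3e, which encodes a chain of the T cell receptor complex and was itself higher in CNS, the direction turned. Klrc1 per Cd3e was 0.232 and 0.184 in CNS and 0.539 and 0.569 in dLN. The turn depends on the marker chosen. Against Cd5 or Cd44, markers of CD4 T cells that were lower in CNS (log2 ratios -0.29 and -0.56), Klrc1 stayed higher in CNS. Klrd1 per Cd3e stayed higher in CNS, at 0.149 and 0.0932 against 0.00841 and 0.00596. These ratios are descriptions of FPKM, without a test.

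The balance between the partner chains differed between the tissues. Klrc1 was 1.55 and 1.98 times the FPKM of Klrd1 in CNS and 64.1 and 95.5 times in dLN. In dLN, transcripts of the inhibitory chain were thus abundant where those of its partner were under 1 FPKM. The longest Klrc1 transcript, of 1983 bases, held 80.8% and 74.7% of the gene's FPKM in CNS and 76.1% and 77.2% in dLN, and so led in all 4 libraries. Klrc2, which encodes the activating partner NKG2C, was at 0.386 and 0.978 FPKM in CNS and at 0.624 and 0.773 FPKM in dLN. Its tissues overlapped, it was under the filter, and without a filter its log2 ratio was -0.04 (SE 0.21, limma adjusted p = 0.903). The values of this pair are uncertain in one respect, since 36.6% of the 50-base windows of Klrc1 transcripts also occur in Klrc2, and how shared reads were divided was not given in the sources used here. Klrd1 had no 50-base window in common with another gene.

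Klrk1 encodes NKG2D, an activating receptor for stress-induced class I-like ligands. It was at 8.97 and 9.64 FPKM in CNS and at 0.650 and 0.227 FPKM in dLN. The CNS libraries were close to each other and above both dLN libraries, which rested on about 37 and 15 fragments. The mean was 21.2 times as high in CNS, and the log2 ratio was 2.86 (SE 0.18, limma adjusted p = 0.000193). The transcript of 3272 bases held 89.8% and 69.4% of the gene's FPKM in CNS and 85.2% in dLN replicate 1. In dLN replicate 2 it held 0.0681%, and the transcript of 3179 bases held 99.9%. Division of 15 fragments among transcripts that overlap so closely is uncertain.

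Hcst encodes DAP10, the adaptor of NKG2D. It was at 414 and 450 FPKM in CNS and at 75.3 and 60.7 FPKM in dLN, high in every library and higher in CNS (log2 ratio 2.66, SE 0.13, limma adjusted p = 0.000111). Klrk1 per Hcst was 0.0217 and 0.0214 in CNS and 0.00863 and 0.00374 in dLN, so receptor transcripts were few beside those of the adaptor in both tissues. Of the NKG2D ligands, Ulbp1, which encodes MULT-1, was at 2.15 and 1.96 FPKM in CNS and at 0.628 and 0.415 FPKM in dLN (log2 ratio 1.01, SE 0.15, limma adjusted p = 0.00278). The Raet1 and H60 genes that were matched were under 1 FPKM in all 4 libraries.

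Klrg1 encodes an inhibitory receptor for cadherins that marks late effector T cells. It was at 25.6 and 17.8 FPKM in CNS and at 2.52 and 2.11 FPKM in dLN. The CNS libraries differed from each other by more than the dLN libraries did, and the lower one still lay well above both. The mean was 9.37 times as high in CNS (21.7 ± 5.52 against 2.32 ± 0.290 FPKM, SD, n = 2 each), with a log2 ratio of 2.76 (SE 0.19, limma adjusted p = 0.000263). Per Cd3e it was at 0.0782 and 0.0458 in CNS and at 0.0243 and 0.0237 in dLN. Cdh1, which encodes its ligand E-cadherin, was at 9.55 and 9.46 FPKM in CNS and listed at 0 in both dLN libraries. Against a floor of 3 fragments per library in dLN, Cdh1 was at least 269.7-fold higher in CNS. Cdh2, which encodes the ligand N-cadherin, was at 0.0426 and 0.0414 FPKM in CNS and listed at 0 in dLN.

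Klrb1b, Klrb1c and Klrb1f encode NKR-P1 receptors, whose known ligands are C-type lectin-related molecules encoded within the same complex. Klrb1b, an inhibitory member, was at 9.33 and 11.7 FPKM in CNS and at 0.0266 and 0.0223 FPKM in dLN. The dLN values stand for about 1 fragment per library, against 402 and 511 in CNS. Pooled over libraries, the ratio of fragments was 432 with a 95% exact interval of 119 to 3576, and the log2 ratio was 3.48 (SE 0.15, limma adjusted p = 9.22e-05). Klrb1c, which encodes the activating receptor NK1.1, was lower, at 2.53 and 3.22 FPKM in CNS, and at 0.0442 and 0 FPKM in dLN. With 2 fragments in all of dLN, its ratio was 143 with an interval of 39.2 to 1184, and its log2 ratio was 1.92 (SE 0.16, limma adjusted p = 0.000432).

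Klrb1f was at 9.44 and 7.60 FPKM in CNS and at 0.356 and 0.132 FPKM in dLN. It was close to Klrb1b in CNS but above it in dLN, where it had about 10 and 4 fragments. Its log2 ratio was 2.93 (SE 0.17, limma adjusted p = 0.000159), and the ratio of fragments was 37.1 with an interval of 21.9 to 68.4. Within the same family, Klrb1a and Klrb1 were under 0.2 FPKM in all 4 libraries. Klrb1b and Klrb1c overlap the annotated gene Gm44511 on the same strand, with which they share 25.5% and 12.4% of their 50-base windows. Klrb1f lies opposite the antisense gene Gm44000 over 2559 bases, and since the kit does not mark strand, reads of the 2 genes cannot be told apart there. Clec2d, which encodes the ligand of the Klrb1b product, was at 56.0 and 59.5 FPKM in CNS and at 55.7 and 51.7 FPKM in dLN. It was not called (log2 ratio 0.10, SE 0.09, limma adjusted p = 0.322), and its ratio was -0.09 with libraries scaled to the same sum and 0.24 (limma adjusted p = 0.048) with libraries scaled to the same upper quartile. Clec2i, which encodes the ligand of the Klrb1f product, was higher in CNS, at 12.6 and 11.1 against 7.43 and 7.37 FPKM (log2 ratio 0.61, SE 0.10, limma adjusted p = 0.00392).

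Klre1 encodes a chain that pairs with the Klri products. It was at 1.44 and 1.67 FPKM in CNS and at 0 and 0.0621 FPKM in dLN, which held 1 fragment in all against 49. The log2 ratio was 1.31 (SE 0.16, limma adjusted p = 0.00133), and the ratio of fragments, 45.9, had an interval of 7.86 to 1849. Of its partners, Klri1 was listed at 0 in all 4 libraries and Klri2 was at 0.648 and 0.657 FPKM in CNS and at 0.217 and 0.182 FPKM in dLN.

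Ncr1 encodes NKp46, a receptor that is used to define NK cells. Its values were 0 and 0.581 FPKM in CNS and 0.0423 and 0 FPKM in dLN. Only CNS replicate 2 held more than 1 fragment (about 16), and the tissues overlapped. Ncr1 was under the filter, and without a filter its log2 ratio was 0.30 (SE 0.25, limma adjusted p = 0.390).

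**Figure D2:**
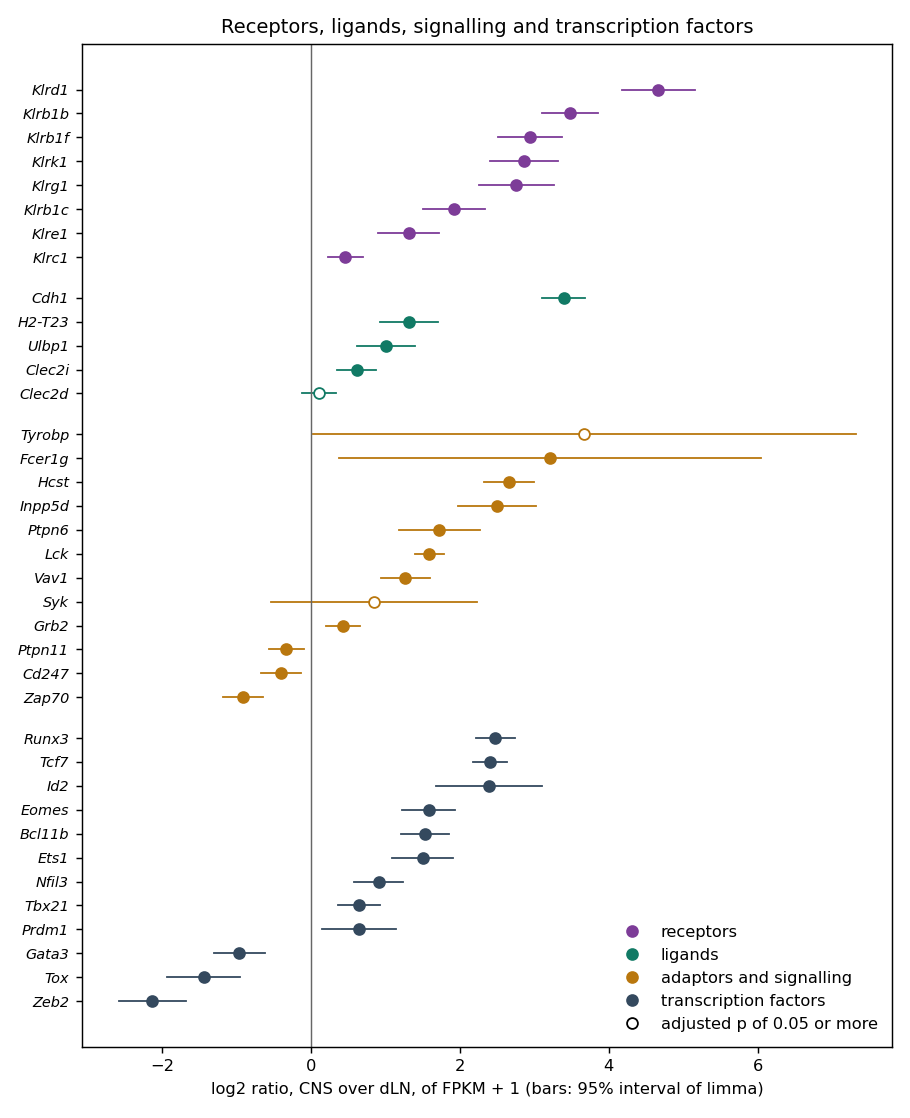
Log2 ratios, CNS over dLN, of FPKM + 1 for the 8 receptor genes tested and for genes of the ligand, signalling and transcription factor lists. Points are limma estimates from 2 libraries per tissue, bars their 95% intervals, and hollow points have an adjusted p of 0.05 or more. Receptor genes run from 0.46 for Klrc1 to 4.67 for Klrd1, and the bar of Tyrobp is the widest of those drawn.

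The CNS libraries did not move together across the 10 genes. In CNS replicate 2, 6 of them were higher than in replicate 1 (Klrc2, Klrk1, Klrb1b, Klrb1c, Klre1 and Ncr1) and 4 were lower (Klrd1, Klrc1, Klrg1 and Klrb1f). Without CNS replicate 2 the log2 ratio was 4.88 for Klrd1, 2.81 for Klrk1, 3.01 for Klrg1 and 3.33 for Klrb1b. It was 1.79 for Klrb1c, 3.07 for Klrb1f and 1.24 for Klre1. Of these 7, all but Klrg1 passed the filter through CNS alone, so their direction was largely fixed in advance.

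Position was examined next, since 8 of the 10 genes lie in the NK gene complex. Between the first base of Klrb1a and the last of Klra2 (mm10, chr6:128609227-131247362, 2.64 megabases) the tables listed 58 symbols. Klrg1 lies outside it on the same chromosome (chr6:122270597-122282833), and Ncr1 lies on chromosome 7 (chr7:4337724-4345164). With the receptor genes left out, 10 of the other 50 symbols were tested, of which 6 were called higher, 2 lower and 2 not called, with a median log2 ratio of 0.94. Of the 10, Gm15987, BC064078, Clec12a and Clec7a passed the filter through CNS alone and had to lie higher there, and Olr1 passed through dLN alone. Over the 5 with a mean of 1 FPKM or more in both tissues the median was 0.37, and over all 9099 such genes it was -0.04. Among the calls, that of 2310001H17Rik (log2 ratio 0.37, limma adjusted p = 0.0442) was lost without any 1 of the 4 libraries (0.0674 to 0.192), without a filter (0.0899), without a trend in the variance prior (0.05005), and with libraries scaled to the same sum (0.261) or by the median ratio (0.0665). Its direction turned when each gene was read from its highest transcript (-0.08). Clec7a, at 1.12 and 16.4 FPKM in CNS, was not called with all libraries (limma adjusted p = 0.0957) but was with a pseudocount of 0.1 (0.0481). Its log2 ratio was 3.74 without CNS replicate 1 and 0.70 without CNS replicate 2. These fits hold 1 CNS library and take their spread from dLN alone. BC064078, between Klrb1b and Klrb1f, was highest in ratio among these 10, at 5.75 and 5.64 FPKM in CNS and 0.248 and 0.0691 FPKM in dLN (log2 ratio 2.54, SE 0.14, limma adjusted p = 0.000149), although without CNS replicate 1 that of Clec7a was higher (3.74). Neighbours of Klre1 and Klrd1 went the other way. Olr1, a scavenger receptor gene, was at 0.0858 and 1.16 FPKM in CNS and at 15.4 and 16.1 FPKM in dLN (log2 ratio -3.45, SE 0.34, limma adjusted p = 0.000671). Gabarapl1, an autophagy gene, was at 24.5 ± 6.36 FPKM in CNS and at 57.7 ± 0.206 FPKM in dLN (SD, n = 2 each, log2 ratio -1.23, SE 0.18, limma adjusted p = 0.00283).

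Receptor genes of the complex beyond the 10 were mostly near 0. Of 18 such genes in the list, 17 were under the filter, and Cd69, an early activation marker of T cells, was the other, with 516 and 510 FPKM in CNS and 189 and 221 FPKM in dLN (log2 ratio 1.32, SE 0.10, limma adjusted p = 0.000321). The 11 Klra genes of the list, out of 20 Klra symbols in the complex, encode Ly49 receptors of NK cells and summed to 1.87 and 5.50 FPKM in CNS and to 0.116 and 0.0468 FPKM in dLN. Each of the 9 others was under 0.2 FPKM in all 4 libraries. At the level of single Klra genes, 7 and 3 of the 11 were listed at 0 in the CNS libraries and 8 and 10 in the dLN libraries. Klrc3, which encodes a further NKG2 chain, was under 0.2 FPKM throughout.

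**Figure D3:**
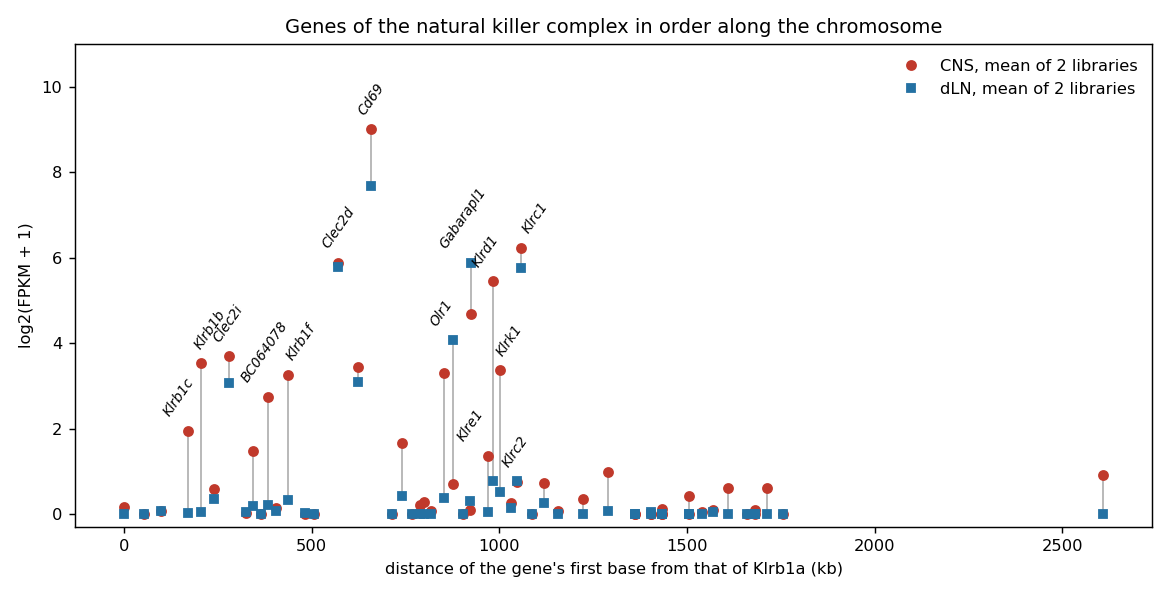
Mean log2(FPKM + 1) of the 58 symbols of the NK gene complex in CNS (red circles) and dLN (blue squares), by distance in kb from the first base of Klrb1a, with grey lines joining the values of a gene. Higher CNS values stand at Klrb1b, Klrb1f, Klrd1 and Klrk1, lower ones at Olr1 and Gabarapl1, and the Klra genes at the right lie near 0 in both tissues.

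Of 14 ligand genes, 13 were matched (H60a was not), 5 were tested and 4 were called higher in CNS. Over the 5 the median log2 ratio was 1.01, that of Ulbp1, which is also the median with Cdh1 at its lower bound. Ulbp1 and Cdh1 passed the filter through CNS alone and had to lie higher there, and over the 3 others the median was 0.61. Besides Cdh1, Ulbp1 and Clec2i, these included H2-T23, which encodes the Qa-1 heavy chain read by CD94 pairs. H2-T23 was at 321 and 388 FPKM in CNS and at 157 and 126 FPKM in dLN, high in all 4 libraries and higher in CNS (log2 ratio 1.32, SE 0.15, limma adjusted p = 0.00114). Transcripts of Klrd1, of Klrc1 and of this ligand were all present in the CNS libraries. They were present in the dLN libraries as well, with Klrd1 at 0.875 and 0.531 FPKM there.

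All 12 adaptor and signalling genes were tested. There were 7 called higher, 3 lower and 2 not called (Tyrobp and Syk). The median log2 ratio was 1.43, which setting Tyrobp against a floor of 3 fragments per library in dLN would not move. Tyrobp, Fcer1g and Syk passed the filter through CNS alone, and over the 9 others the median was 1.27. The inhibitory phosphatase genes split, with Ptpn6 (SHP-1) at 48.3 and 55.3 against 18.5 and 12.1 FPKM and Inpp5d (SHIP-1) at 57.0 and 55.3 against 11.3 and 7.31 FPKM called higher, while Ptpn11 (SHP-2) was called lower by a small amount. Its log2 ratio of -0.33 (SE 0.09, limma adjusted p = 0.0207) lost its call without CNS replicate 1 (limma adjusted p = 0.0587), without either dLN library (0.0956 and 0.0912), with libraries scaled to the same upper quartile (0.0831) and when each gene was read from its highest transcript (0.0938). Cd247, which encodes the zeta chain of the T cell receptor complex, was called lower (log2 ratio -0.41, limma adjusted p = 0.017), and its call was lost without either dLN library (0.0753 and 0.0893). Grb2, an adaptor gene, was called higher (log2 ratio 0.43, limma adjusted p = 0.00811), and its call was lost without dLN replicate 2 (0.0553) and with libraries scaled to the same sum (0.0714). The kinase gene Zap70 was lowest in ratio, at 119 and 121 FPKM in CNS and 209 and 245 FPKM in dLN (log2 ratio -0.91, SE 0.10, limma adjusted p = 0.00106).

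Adaptors of NK and myeloid cells stood apart between the CNS libraries. Tyrobp, which encodes DAP12, had 1.84 FPKM in CNS replicate 1 but 55.9 FPKM in CNS replicate 2, while both dLN libraries listed it at 0. It was not called (log2 ratio 3.67, SE 1.40, limma adjusted p = 0.0639). The log2 ratio of Tyrobp was 5.83 without CNS replicate 1 and 1.50 without CNS replicate 2. Such fits hold 1 CNS library and take their spread from dLN alone. Their calls therefore leave out the difference between the CNS libraries. Tyrobp was called with pseudocounts of 0.1 and 0.5 (limma adjusted p = 0.0128 and 0.0407) and with libraries scaled by the median ratio (0.0424). Fcer1g, which encodes the Fc receptor gamma chain, was at 2.63 and 36.2 FPKM in CNS and 0.230 and 0.287 FPKM in dLN, and its call (log2 ratio 3.21, SE 1.09, limma adjusted p = 0.0454) was lost without either dLN library (limma adjusted p = 0.139 each), without a filter (0.122) and without a trend in the variance prior (0.0527). Syk, which encodes a kinase, was at 0.0580 and 2.13 FPKM in CNS. It was called only in the fit without CNS replicate 1, which holds 1 CNS library.

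Of 13 transcription factor genes, 12 were tested, 9 were called higher, 3 lower and none was left uncalled, with a median log2 ratio of 1.20. Eomes passed the filter through CNS alone, and over the 11 others the median was 0.91. Runx3, which acts in cytotoxic T cells and NK cells, was highest in ratio, at 51.9 and 58.7 FPKM in CNS and 9.38 and 8.83 FPKM in dLN (log2 ratio 2.48, SE 0.10, limma adjusted p = 9.15e-05). With a pseudocount of 0.1 that of Eomes was higher (3.22 against 2.59), and so was that of Id2 without CNS replicate 2 (2.45 against 2.39) and without dLN replicate 1 (2.80 against 2.52). Eomes, a T-box factor of NK and memory CD8 cells, was low but higher in CNS, at 2.51 and 2.53 against 0.183 and 0.180 FPKM (log2 ratio 1.58, SE 0.13, limma adjusted p = 0.000453). Tbx21, its relative in Th1 cells, was at 46.4 and 49.8 FPKM in CNS and 32.7 and 28.1 FPKM in dLN (log2 ratio 0.65, SE 0.11, limma adjusted p = 0.00429). Zeb2, which accompanies terminal effector maturation, was lowest in ratio, at 2.17 and 3.31 FPKM in CNS and 16.0 and 14.5 FPKM in dLN (log2 ratio -2.14, SE 0.17, limma adjusted p = 0.000397). The call of Prdm1 (log2 ratio 0.64, limma adjusted p = 0.0303) was lost without CNS replicate 1 (0.131), without CNS replicate 2 (0.181), without dLN replicate 2 (0.0782), without a filter (0.0808) and with libraries scaled to the same sum (0.0718). Zbtb16, a factor of innate-like T cells, was under 0.2 FPKM in all 4 libraries.

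Markers of cell types were set beside these values. Of 7 markers of CD4 T cells, all reached 1 FPKM in every library, and they summed to 2343 and 2352 FPKM in CNS and 857 and 788 FPKM in dLN. The most abundant in CNS was Cd3g, at 761 and 674 FPKM in CNS and 112 and 88.4 FPKM in dLN, and Cd4 itself was at 502 and 531 FPKM in CNS and 82.0 and 66.7 FPKM in dLN. In dLN Cd5, at 235 and 248 FPKM, was the most abundant. The label of CD4 T cells was thus met in all 4 libraries, at a higher level in CNS. Of these 7 markers, 5 were called higher and Cd5 and Cd44 lower. The call of Cd5 (log2 ratio -0.29, limma adjusted p = 0.0353) was lost without CNS replicate 1 (0.0796), without either dLN library (0.0983 and 0.169), without a filter (0.0588), without a trend in the variance prior (0.0589) and with libraries scaled to the same upper quartile (0.167).

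Of 14 NK cell markers, 7 and 8 reached 1 FPKM in the CNS libraries and 2 in each dLN library, and they summed to 944 and 1071 FPKM in CNS and 265 and 194 FPKM in dLN. Nkg7, a granule gene that cytotoxic T cells also express, was the most abundant in CNS, at 593 and 578 FPKM against 27.9 and 11.9 FPKM in dLN. In dLN Il2rb, which encodes a chain of the interleukin-2 receptor, made up most of the sum, at 236 and 181 FPKM. Of the 7 that were tested, Nkg7, Itga2, Eomes, Il2rb and Fcer1g were called higher in CNS, and Tyrobp and Fcgr3 were not called. Fcgr3, which encodes an Fc receptor, was at 1.35 and 15.6 FPKM in CNS and 0.309 and 0.116 FPKM in dLN (log2 ratio 2.37, limma adjusted p = 0.0672). It was called with pseudocounts of 0.1 and 0.5 (limma adjusted p = 0.0263 and 0.0481) and with libraries scaled by the median ratio (0.045). It was also called without either CNS library, but those fits take their spread from dLN alone. All but Nkg7 and Il2rb passed the filter through CNS alone. Itga2, which encodes CD49b, an integrin chain used to identify NK cells, was at 4.37 and 3.37 FPKM in CNS and at 0.548 and 0.213 FPKM in dLN (log2 ratio 1.82, SE 0.19, limma adjusted p = 0.000886). The call of Il2rb (log2 ratio 0.78, limma adjusted p = 0.00674) was lost without CNS replicate 2 (0.0678). The other 7, Ncr1 and 6 Klra genes, were under the filter. Klra1 was listed at 0 in all 4 libraries, Klra4, Klra7, Klra9 and Ncr1 were listed at 0 in CNS replicate 1, Klra3 and Klra8 were under 1 FPKM throughout, and Klra7 was at 1.06 FPKM in CNS replicate 2. The part of NK cells in the receptor values was not tested.

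CD8 T cell markers were low, with Cd8a at 0.130 and 0.834 FPKM in CNS and 0.0370 and 0.0154 FPKM in dLN. Cd8b1, the more abundant of the 2, was at 3.66 and 4.56 FPKM in CNS and 3.38 FPKM in each dLN library, and was not called (log2 ratio 0.22, SE 0.13, limma adjusted p = 0.181). The 3 markers of NKT or gamma delta T cells summed to under 0.4 FPKM in every library, with Sox13 the most abundant in CNS.

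Myeloid markers summed to more in CNS, above all in replicate 2. The 14 summed to 23.6 and 256 FPKM in CNS and to 4.35 and 3.84 FPKM in dLN, and 13 of the 14 were higher in CNS replicate 2 than in replicate 1. Of 10 that were tested, all but Cd68 passed the filter through CNS alone, and Lyz2, Itgam, Cx3cr1, Aif1, C1qa, C1qb and C1qc were called higher. Without CNS replicate 2 the log2 ratios of these 7 ran from 0.84 for Aif1 to 2.57 for Cx3cr1. A fit with 1 CNS library takes its spread from dLN alone and leaves out the difference between the CNS libraries. The calls of Lyz2, Aif1 and C1qa were lost without either dLN library (log2 ratios 4.31, 1.63 and 2.48 without dLN replicate 1). Those of Lyz2 and Aif1 were also lost without a filter (limma adjusted p = 0.122 and 0.103). That of Lyz2 was lost without a trend in the variance prior as well (limma adjusted p = 0.0527). Cd68, Csf1r and S100a8 were not called with all libraries at the settings used here. Csf1r was called with pseudocounts of 0.1 and 0.5 (limma adjusted p = 0.0129 and 0.0393) and with libraries scaled by the median ratio (0.0404). Without CNS replicate 1, the log2 ratios of Cd68, Csf1r and S100a8 were 1.12, 2.65 and 6.67. Without CNS replicate 2, that of Csf1r was 0.74 and that of Cd68 was -0.78. S100a8 was the most abundant in CNS replicate 2, at 101 FPKM, and was listed at 0 in the other 3 libraries. Lyz2 followed there, at 3.22 and 92.1 FPKM in CNS. Cx3cr1 led in CNS replicate 1, at 5.54 FPKM, and Cd68 in dLN, at 3.87 and 3.68 FPKM. The part of myeloid cells in the receptor values was not tested.

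Markers of dendritic, B and neural cells were summed in the same way. Of those tested, Itgax, Flt3, Cd79b, Gfap and Snap25 passed the filter through CNS alone and Zbtb46 through dLN alone, so each had to lie higher in that tissue. Dendritic cell markers summed to 5.69 and 8.0 FPKM in CNS and 1.30 and 1.17 FPKM in dLN, led in CNS by Itgax at 5.50 and 5.55 FPKM. Zbtb46 led in dLN, at 0.186 and 0.403 FPKM in CNS and 1.04 and 1.03 FPKM in dLN (log2 ratio -0.66, limma adjusted p = 0.0183), a call that was lost without either dLN library (0.0702 and 0.0607). Flt3, listed at 0 in CNS replicate 1 and at 2.05 FPKM in CNS replicate 2, was not called (limma adjusted p = 0.231). It was called without CNS replicate 1, in a fit that takes its spread from dLN alone. The 3 B cell markers used summed to 1.22 and 1.74 FPKM in CNS and 0.432 and 0.258 FPKM in dLN, with Cd79b the most abundant. Neural markers summed to 49.8 FPKM in each CNS library and to 55.7 and 58.0 FPKM in dLN, nearly all of it Mbp, at 48.6 and 44.5 FPKM in CNS and 55.5 and 57.7 FPKM in dLN. Mbp was called lower in CNS (log2 ratio -0.28, limma adjusted p = 0.0361). This call was lost with libraries scaled to the same upper quartile (limma adjusted p = 0.220) and without a trend in the variance prior (0.0531). It was also lost without CNS replicate 2 (log2 ratio -0.22) and without dLN replicate 1 (log2 ratio -0.30). Gfap, a gene of astrocytes, was at 0.655 and 2.51 FPKM in CNS and listed at 0 in dLN, and its call (log2 ratio 1.27, limma adjusted p = 0.0312) was lost without either dLN library (0.102 and 0.105) and without a filter (0.0787). Snap25, a gene of neurons, was at 0.316 and 1.80 FPKM in CNS and under 0.03 FPKM in dLN. It was not called (limma adjusted p = 0.0822) but was with a pseudocount of 0.1 (0.0366). Without either CNS library it was called too, in fits that take their spread from dLN alone. Mobp, a gene of oligodendrocytes, was under 0.2 FPKM in all 4 libraries. The part of these cells in the receptor values was not tested.

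**Figure D4:**
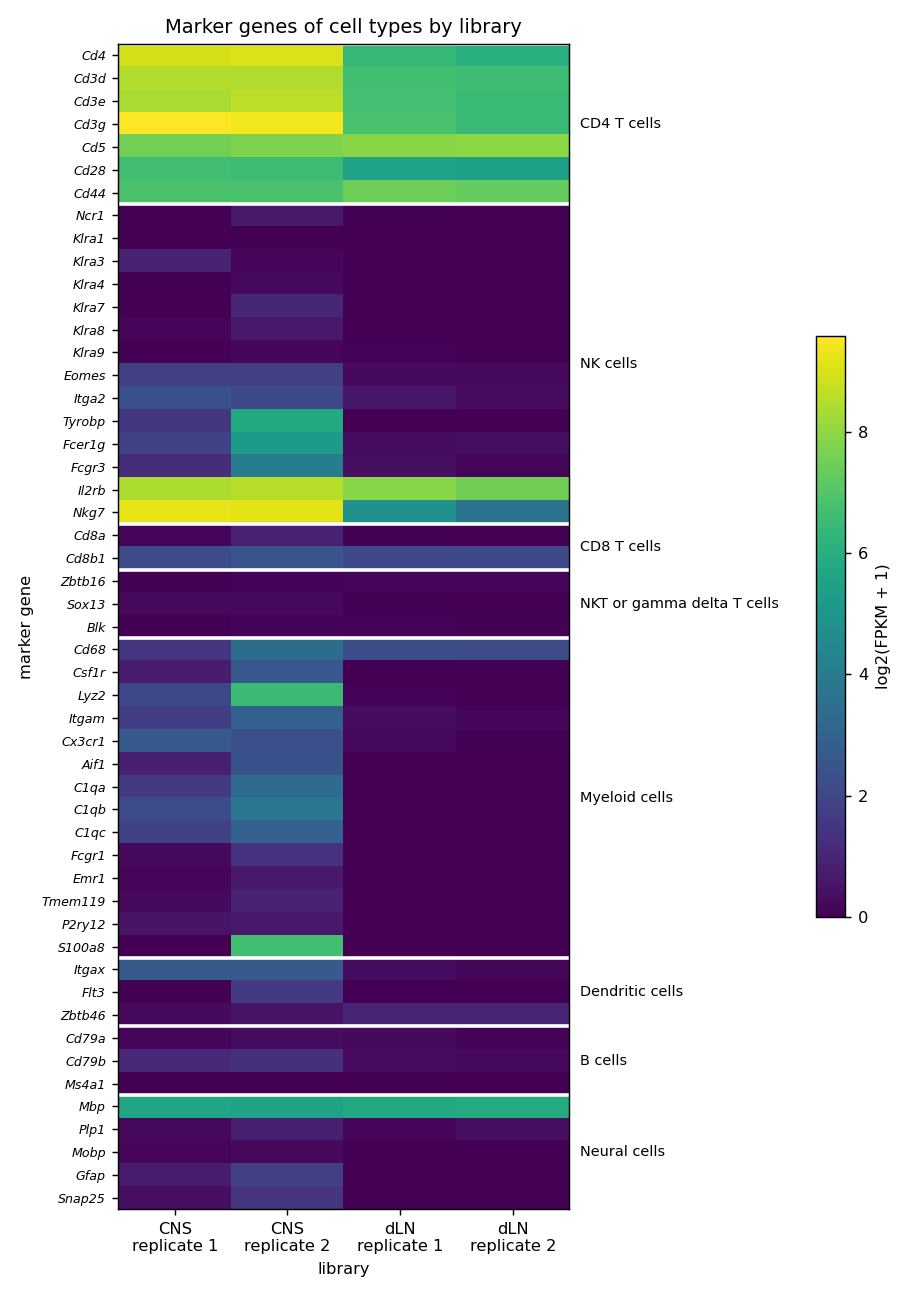
Log2(FPKM + 1) of marker genes of 8 cell types in the 4 libraries, with brighter colours for higher values. CD4 T cell markers are bright in every library, the Klra and Ncr1 rows are dark, and the myeloid rows brighten in CNS replicate 2, where S100a8 is at 101 FPKM.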

How the data were processed

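RNA of sorted CD44+ CD4 cells was sequenced from CNS and dLN, with 2 libraries each (TruSeq RNA V2, HiSeq2500). The authors trimmed and mapped the reads to mm10 and deposited FPKM per RefSeq transcript, in 1 table per tissue. The aligner and FPKM program were not given in the sources used here. The header of the CNS table names both libraries in a single cell, and the order of these names was taken for the order of its columns. FPKM of 33819 transcripts were summed by symbol; 565 without a symbol (0.142% to 0.446% of FPKM) were left out. Depth was estimated from the step size of low values, of which 91.7% to 93.9% lay within 0.1 fragments of a whole number (20% by chance).

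Genes whose mean reached 1 FPKM in either tissue were tested on log2(FPKM + 1) with limma 3.58.1 in R 4.3.3 (eBayes with trend, tissue only, Benjamini-Hochberg adjustment over 10634 genes, called under 0.05). The script was tested on simulated data for 10634 genes. It recovered 81 of 100 changes of log2 size 1.5 and 99 of 100 of size 3, with 17 false calls. Tables were made in Python 3.11.15 with pandas 2.3.3, scipy 1.17.1 and numpy 2.4.6, figures with matplotlib 3.10.9, and shared 50-base windows and overlaps come from GENCODE M21. Ratios of fragments have exact intervals conditional on their total, and floors of 3 fragments, like these intervals, cover counting error only. Alternatives were other pseudocounts, filters, scalings, transcript rules, variance priors, a minimum fold, a replicate block and leaving out each library. Genes named are the 10 receptors and, of lists of further receptors, ligands, adaptors, transcription factors, neighbours and cell type markers, those called with the largest ratio in each direction, partners of a receptor described, the most abundant or defining markers, and genes of the adaptor, transcription factor, neighbour and CD4 T cell lists whose call a library decided. Ddx3y, Il2, Tbx21, Eomes, Zbtb16, Gabarapl1, markers other than the most abundant of each list, the last kind and medians over genes at 1 FPKM or more in both tissues were added after the values were seen. The 10 genes and the lists were chosen with earlier results of these data known. Of the cell type markers, 1 is not reported here.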

Additional observations from a re-analysis of the deposited data

How the results depend on the processing

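Over 15 alternatives, the members' log2 ratios gave 119 comparisons, of which 116 kept direction and side of the threshold and 3 lost the call, all of Klrc1. These were scaling to the same sum, leaving out dLN replicate 2, and a required log2 ratio of at least 1. With that minimum, 4168 genes were called in place of 7968, by construction. Of the 8 receptor genes tested, 6 passed the filter through CNS alone and could hardly change direction under any alternative. The tally of comparisons therefore supports nothing about the family. Without 1 library (the lone library of a tissue is then taken to vary like the other tissue) 6596 to 7363 genes were called, 7 to 8 of the receptor genes and 22 to 27 of the genes in the 4 pathway lists (27 with all libraries). Under the other alternatives these counts were at most 8477, 7 to 8, and 18 to 29. Scaling to the same sum moved the median log2 ratio of all genes by -0.17, and to the same upper quartile by 0.12, and no receptor gene changed direction. Requiring a mean of 1 FPKM over all 4 libraries left Klre1 untested. A pseudocount of 0.1 raised the log2 ratio to 6.40 for Klrb1b, 5.75 for Klrd1, 4.72 for Klrb1f, 4.62 for Klrb1c, 4.25 for Klrk1, 3.70 for Klre1 and 3.16 for Klrg1. A replicate block in the fit left 7828 genes called, and no receptor call changed. In the 4 pathway lists Tyrobp was then called (limma adjusted p = 0.0411), and among the neighbours 2310001H17Rik was not (0.0685). Among the cell type markers Csf1r was then called (limma adjusted p = 0.0424) and Mbp was not (0.0584). Same-numbered replicates deviated together only weakly across genes (r = 0.0933, genes not being independent), so the numbers were not taken to pair libraries. At this depth 3 fragments are worth about 0.0735 FPKM in dLN for Klrb1b and 0.205 for Klre1.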
